A study of Homo sapiens with 16 samples.

Results

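The interleukin-1 (IL-1) family ligands and receptors described here are 10 genes of the 32285 in the count tables: the ligands Il1a, Il1b, Il18 and Il33, the receptor antagonist Il1rn, the signalling receptor Il1r1 with its shared partner Il1rap, the decoy receptor Il1r2, the IL-33 receptor Il1rl1 (ST2), and Nlrp3, the sensor of the inflammasome that leads to the cleavage of pro-IL-1β and pro-IL-18. They were picked by name as members of this pathway, with earlier results of these data known, and all 10 had unique molecular identifiers (UMIs) in each experiment. The question taken up is which cells of these tumors carried each message, and how far the same cells of the PARP inhibitor (PARPi)-sensitive and the PARPi-resistant tumor model differed.

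The cells came from mouse mammary tumors, described by single-cell RNA-seq (10x Genomics 3′ libraries). LPA1-T22 (T22, intrinsically PARPi sensitive) and LPA1-T127 (T127, intrinsically PARPi resistant) are mouse-derived syngeneic transplants that arose in mice with the LPA1 receptor expressed in mammary epithelium, passaged as tumor pieces into the mammary fat pads of immunocompetent female FVB mice. In the long-term experiment, T22 and T127 grew alone or co-transplanted on opposite sides of a mouse, under vehicle or olaparib (50 mg/kg daily by mouth) for 20 days. In the short-term experiments, T22 alone or T127 alone received vehicle, or olaparib for 4 or 8 days. The 16 samples are pools of hashtag-labelled tumors: 8 long-term pools, 4 short-term T22 pools and 4 short-term T127 pools. The labels of the long-term pools cover single and co-transplanted tumors with or without olaparib. They do not say which settings each pool holds. A map from cells to tumors was not used here, so vehicle and olaparib, or single and co-transplanted tumors, were not compared. Each short-term model counts as 1 sample captured in 4 pools, so no p-value is given, and model and pool cannot be told apart. Each model is also a single transplantable tumor line.

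Long-term pools 1, 2 and 3 shared 987 to 3939 cell barcodes per pair, against 1 to 8 in every other long-term pair, so each shared barcode was counted once, at its deepest copy, which took 30845 long-term cells to 25723. The short-term experiments held 15094 (T22) and 8007 (T127) cells, whose pools shared at most 8 barcodes. Depth differed between models, with median UMIs per cell of 7730 to 8528 in the T22 pools, 22712 to 26017 in the T127 pools and 9548.5 to 11720.5 in the long-term pools. Levels are therefore UMIs summed over the cells of an authors' cluster, per 1000000 UMIs (CPM). They are 3′ end counts, so a level is compared between clusters or models for 1 gene, never between genes. Brackets give exact 95% intervals of counting error only.

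The names of the authors' clusters were checked against marker genes. Macrophage markers summed to 3507 CPM in long-term Macro-M2, 3524 in T22 and 4807 in T127. CD14-IL1B went against its name in T22, where macrophage markers summed to 654 CPM and dendritic cell markers (Xcr1, Ccl22 and others) to 1558, and in T127 the sums were 1549 and 1538. CD14-PF4, with 66 cells in each short-term model, carried neutrophil markers at 4022 CPM in T22, from 149 to 10576 between pools, and at 1237 in T127. Both are therefore called by the authors' labels only. Malign_0 and Malign_1 are the T127 malignant clusters, with fibroblast markers at 2898 CPM beside epithelial markers at 2070 in short-term Malign_0, and Malign_2 and Malign_3 are the T22 malignant clusters. The fibroblast sum of Malign_0 was mostly Dcn and its epithelial sum mostly Krt8 and Krt18, with few UMIs of Col1a1 or Epcam. The i_CAF cluster (inflammatory cancer-associated fibroblasts) held fibroblast markers at 12485 CPM in the long-term pools.

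As background, IL-1α and IL-1β both signal through IL1R1 and its partner IL1RAP to MyD88 and NF-κB, whereas the antagonist encoded by Il1rn occupies IL1R1 without signalling and IL1R2 binds ligand without a signalling domain. IL-1α can act as an alarm signal from dying cells without processing, while IL-1β and IL-18 need cleavage by caspase-1. IL-33 is a nuclear alarm protein of stromal and epithelial cells that acts through ST2 on regulatory T cells, type 2 innate lymphoid cells and mast cells. Messages do not show processing or secretion.

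The family was split between compartments. In each experiment, the 7 monocyte and macrophage clusters, grouped by the authors' names and so with CD14-IL1B and CD14-PF4, held 96.5% to 99.4% of the UMIs of Il1a, 98.1% to 99.2% of Il1b, 97.9% to 98.9% of Il1rn, 91.6% to 94.9% of Il1r2 and 98.2% to 99.0% of Nlrp3. These clusters made up 46.8% of all UMIs in the long-term pools, 39.5% in T22 and 12.6% in T127. Il33 and Il1r1 lay elsewhere: monocytes and macrophages held 2.17% of the long-term Il33 UMIs and 10.3% of the Il1r1 UMIs, while fibroblasts, with 3.72% of all UMIs, held 28.4% and 40.2%. CD14-IL1B and CD14-PF4 held 12.8% and 1.00% of the long-term Il1r2 UMIs, and at most 4.24% and 0.474% for the other 4 of these genes. Thus Il1a, Il1b, the antagonist, the decoy and the sensor were mostly in 1 compartment, and most of the signalling receptor was in the stroma, malignant cells and T cells.

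**Figure D1:**
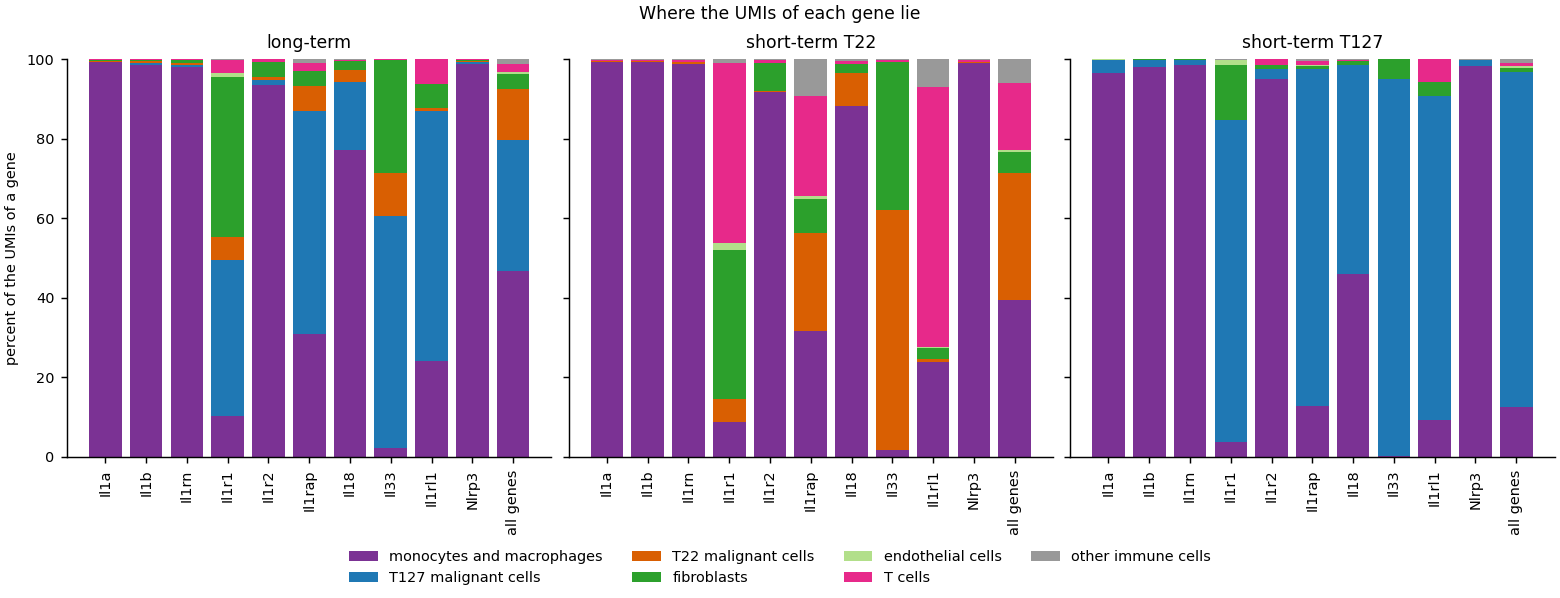
Percent of each gene's UMIs held by each cell class in the long-term, short-term T22 and short-term T127 experiments, with the percent of all UMIs for comparison (bars stack to the whole of a gene's UMIs). Il1a, Il1b, Il1rn, Il1r2 and Nlrp3 are held almost wholly by monocytes and macrophages in each experiment, whereas Il33 is held mainly by fibroblasts and malignant cells, and Il1r1 by these and, in T22, T cells.

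Among the ligands, Il1b, the main secreted IL-1 of activated macrophages, was highest in long-term Macro-M1, at 4827 CPM [4787–4867], with pools from 3595 through a median of 4598 to 5806. Macro-others followed at 3732 CPM (2918, 3749 and 4490 as lowest, median and highest pool). Macro-M2 stood at 3131 (2643, 3034 and 3760), next to CD16-CDKN1C at 3116. Every neighbouring pair in this order of the monocyte and macrophage clusters overlapped between pools, so the order itself is not resolved. CD14-IL1B, the cluster whose name carries the gene, had an Il1b level of 2890 CPM, lower than in 4 of the other 6. Of the other clusters of this compartment, Macro-MKI67 had 2628 CPM and CD14-PF4 1513. In T22 the order differed, with Il1b at 3156 CPM in Macro-others, 3011 in Macro-M2, 2114 in Macro-MKI67 and 2023 in Macro-M1.

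Outside this compartment the long-term Il1b level ran from 21.7 CPM in Malign_0 to 228 in CD4_Treg-FOXP3, and in T22 from 3.43 to 13.0 (my_CAF, 4.04 without pool 2). Thinned to 3000 UMIs per cell, 85.4% of long-term Macro-M1 cells [83.0–87.6] had an Il1b UMI, but so did 16.7% of NK cells [12.3–21.9], a type not known for it, with median depths of 11724 and 5822.5 UMIs among the cells of at least 3000 UMIs that thinning kept. Here and in what follows, a depth beside a thinned share is of the kept cells, and a share before thinning is of all cells. Before thinning the shares were 92.2% and 24.9%. The thinned NK cell share was 3.16% in T22 and 2.29% in T127. The NK cell share is given as a reference, and whether it is background or expression was not tested. Single pools carried part of the higher levels: CD4_Treg-FOXP3 was at 114 CPM in place of 228 without long-term pool 4, and endothelial cells at 48.9 in place of 159 without pool 8. The source of these UMIs, and of those in i_CAF (148 CPM), was not tested.

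Il1a, the ligand that is active without cleavage, was narrower than Il1b. The long-term Il1a level was 352 CPM [342–363] in Macro-M1 (pools 250.3, 354 and 441 as lowest, median and highest) and 335 in Macro-others (277, 334 and 378). It was 224 in Macro-M2 (194, 216 and 259), where no pool reached the lowest of Macro-others. CD14-IL1B had 45.3 CPM of Il1a, with pools from 5.09 to 91.0, and CD14-PF4 55.1. In T22, Il1a was at 481 CPM in Macro-others, 322 in Macro-M2, 229 in Macro-MKI67 and 201 in Macro-M1. Few cells held most of the message: in T22 Macro-M2, after thinning, 29.6% of cells [26.1–33.2] had an Il1a UMI, against 0.598% of NK cells (median depths 13221 and 6571.5 UMIs, 43.6% and 0.922% before thinning), and the highest 10% of cells held 73.4% of the Il1a UMIs. For Il1b in the same cells the shares were 69.3% of cells and 42.8% of UMIs in the highest 10%.

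Il1rn, which encodes the IL-1 receptor antagonist, was, like Il1b, highest in long-term Macro-M1, with 217 CPM [208–225] in Macro-M1 (184, 205 and 285), followed by 191 [187–195] in Macro-M2 (168, 188 and 222). In Macro-others it was 133 CPM (102, 133 and 169), a range that just meets that of Macro-M2. In T22, Il1rn was at 221 CPM in Macro-M2, 177 in Macro-others and 145 in Macro-M1. Since both genes were counted in the same cells, the ratio of Il1b to Il1rn UMIs describes the balance of agonist to antagonist message within a cluster. In the long-term pools it was 16.4 [16.0–16.8] in Macro-M2 (pools 15.0 to 19.2), 22.3 in Macro-M1 (15.4 to 28.3) and 28.0 in Macro-others (23.6 to 31.1). The Macro-M1 range overlapped both others. In T22 the ratio was 13.6 in Macro-M2, 14.0 in Macro-M1 and 17.8 in Macro-others.

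Il18, the other inflammasome-dependent ligand, had another distribution. Its long-term level was 96.8 CPM [93.8–99.8] in Macro-M2 (69.7, 85.8 and 136) and 73.7 in CD16-CDKN1C, with 98.8 in CD14-PF4 from 104 UMIs, but 49.2 in Macro-others and 44.9 in Macro-M1, where Il1a and Il1b were at their top. Il18 was also the myeloid ligand with the largest share in tumor cells: Malign_0, Malign_1 and Malign_3 had 23.5, 20.6 and 20.4 CPM, and the T127 malignant clusters held 52.7% of the T127 Il18 UMIs, with 84.1% of all T127 UMIs. Malign_2 of T22 had 3.87 CPM. Of the Il18 receptor chains, Il18r1 was highest in T22 Tgd (gamma delta T cells), at 258 CPM, and Il18rap in NK cells, at 114 in T22 and 108 in T127.

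Il33 was a message of fibroblasts and malignant cells. In the long-term pools, i_CAF had 345 CPM [334–357] of Il33, with pools of 257, 309 and 528 as lowest, median and highest. No malignant cluster reached that range: Malign_0 had 76.5 CPM (64.3, 76.0 and 102), Malign_1 72.4 and Malign_2 58.0. The myofibroblast-like my_CAF and the T22 malignant cluster Malign_3 were not among the carriers, the latter at 2.28 CPM (1.49 without pool 4), and the monocyte and macrophage clusters together had 1.96. In the short-term pools, Malign_2 of T22 held 29.9, 37.4, 35.2 and 38.7 CPM of Il33 in pools 1 to 4, and Malign_0 of T127 63.4, 60.4, 60.9 and 53.0. Malignant Il33 was thus present in both models, in all 4 pools of each.

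**Figure D2:**
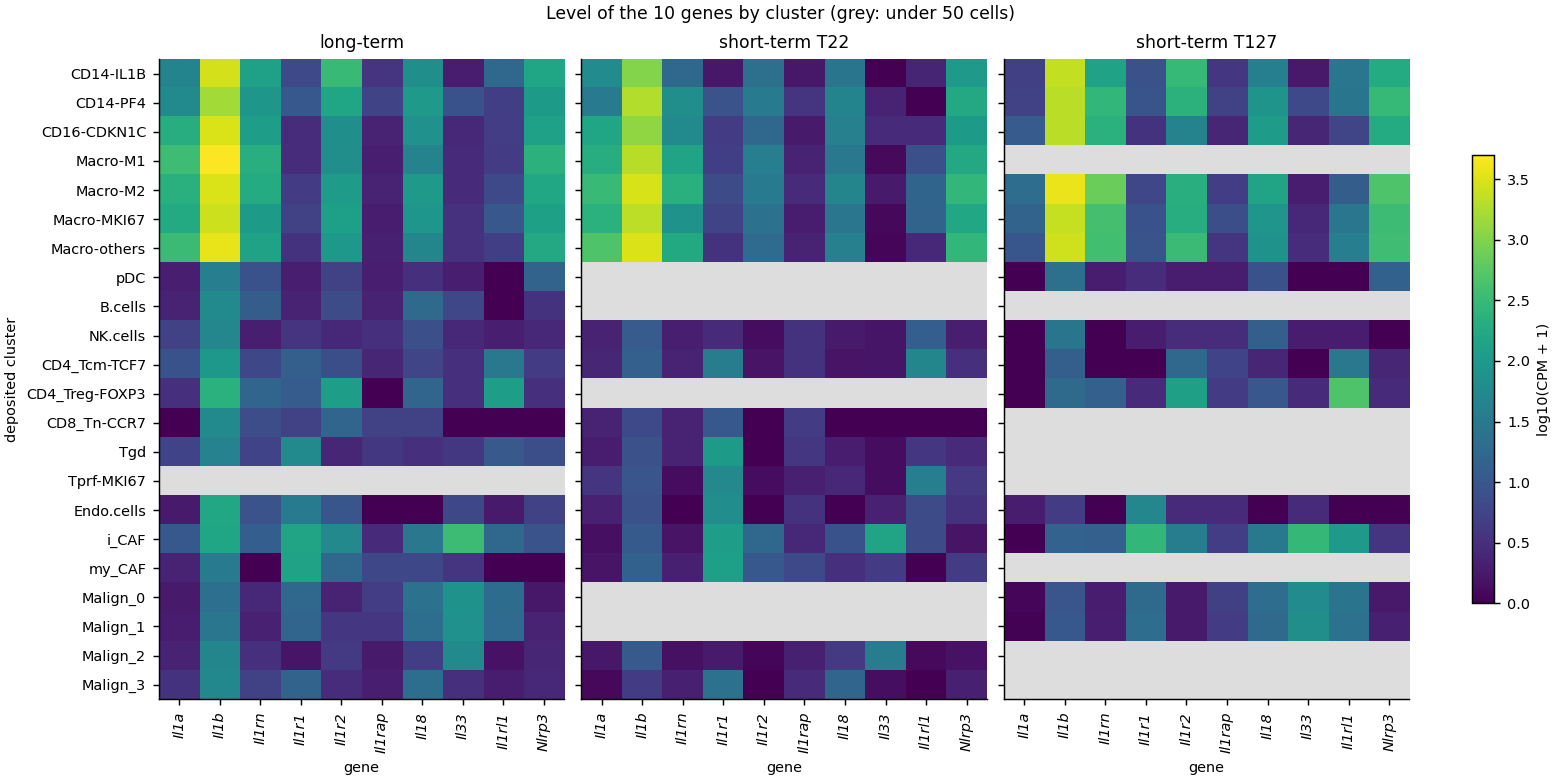
Level of the 10 genes (log10 of CPM + 1, colour) in each cluster of at least 50 cells in the 3 experiments, with grey for clusters under 50 cells. The columns of Il1a, Il1b, Il1rn, Il1r2 and Nlrp3 are bright over the monocyte and macrophage clusters, and those of Il33 and Il1r1 over fibroblasts and, more weakly, malignant cells.

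Il1r1, the receptor through which both IL-1 ligands signal, was highest in fibroblasts. Long-term i_CAF had 144 CPM [137–151] of Il1r1 (103, 142 and 202) and my_CAF 135 [109.6–164] (94.9, 129 and 167), which overlapped. Tgd cells followed at 56.7 CPM (30.4, 61.9 and 77.4), below every my_CAF pool, and endothelial cells had 32.4. The malignant clusters had 13.9 to 16.3 CPM, apart from Malign_2 at 0.595, and the monocyte and macrophage clusters together 2.90.

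In T22, T cells held 45.2% of the Il1r1 UMIs, more than fibroblasts with 37.4%. By level fibroblasts were highest, with 121 CPM in my_CAF and 117 in i_CAF. Tgd had 101 CPM, with pools that overlapped those of i_CAF, and CD4_Tcm-TCF7 had 35.5. Tgd cells there had 126, 98.2, 86.6 and 92.6 CPM of Il1r1 in pools 1 to 4, and the proliferating T cells of Tprf-MKI67 49.2, 51.6, 47.0 and 71.5. All 4 Tgd pools were above all 4 Tprf-MKI67 pools. After thinning, 20.9% of T22 Tgd cells [16.9–25.3] had an Il1r1 UMI, against 0.598% of NK cells (median depths 7918 and 6571.5 UMIs, 42.1% and 0.922% before thinning). Tgd cells numbered 17 in T127, too few for a level.

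Il1rap, which pairs with both IL1R1 and ST2, was near the limit of detection everywhere. Of 610 long-term UMIs, 56.2% were in the T127 malignant clusters, where its level was 3.76 CPM in Malign_0 [3.28–4.28] (1.75, 3.63 and 5.35) and 2.91 in Malign_1. No cluster of at least 50 cells passed 6.66 CPM in any experiment. At this depth, its order between clusters was not resolved.

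Il1r2, the decoy, had its highest long-term level in CD14-IL1B, with pools that overlapped those of CD14-PF4. In T22 the highest level was in Macro-M1 (37.1 CPM, against 22.2 in CD14-IL1B) and in T127 in Macro-others (328, against 299). The long-term level was 317 CPM [304–332] in CD14-IL1B (207, 305 and 468), 147 in CD14-PF4, 123 in Macro-MKI67 and 110.5 in Macro-M2 (76.2, 115 and 133), and 54.9 in i_CAF. CD4_Treg-FOXP3, the regulatory T cells, had 118 CPM from 54 UMIs, with pools from 30.1 to 308, and in T127 124 CPM with pools of 144, 112, 93.1 and 137. The ratio of Il1r1 to Il1r2 UMIs was 0.029 over the long-term monocyte and macrophage clusters (pools 0.018 to 0.037), 2.62 in i_CAF (1.48 to 5.61) and 12.4 in Malign_0. Relative to the decoy, long-term receptor message was thus lower in the clusters that held the ligands than in fibroblasts and T127 malignant cells. Of the T22 malignant clusters, long-term Malign_3 had a ratio of 7.33 (11.6 without pool 7) and long-term Malign_2 0.184, from 14 and 76 UMIs. In the short-term T22 pools, Malign_2 had a ratio of 5.25 [2.43–12.9], from 42 and 8 UMIs, so its direction was not resolved. In T127 the ratio was 0.014 in regulatory T cells, from 1 and 69 UMIs, and 0.028 over the monocyte and macrophage clusters.

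Il1rl1 (ST2), the IL-33 receptor, was highest in regulatory T cells, with 118 CPM [88.8–154] in the long-term pools (42.0, 115 and 182, from 54 UMIs) and 482 [426–544] in T127, where pools 1 to 4 had 413, 409, 618 and 481. Foxp3, which defines these cells, was at 131 and 614 CPM. After thinning, 37.1% of T127 regulatory T cells [27.1–48.0] had an Il1rl1 UMI and none of 131 NK cells, which allows a share of up to 2.29% (median depths 4124 and 6574 UMIs). Before thinning, over all 149 and 141 cells with median depths of 3245 and 6064 UMIs, the shares were 46.3% and 0.709%. T22 had only 5 cells in this cluster. Its Il1rl1 level was instead highest in CD4_Tcm-TCF7, at 49.6, 47.4, 56.8 and 39.1 CPM in pools 1 to 4. Tprf-MKI67 followed at 37.8 CPM, with overlapping pools, and the T cell clusters together held 65.5% of the T22 Il1rl1 UMIs. T127 malignant cells also carried the message: Malign_0 had 31.8, 20.0, 24.0 and 25.3 CPM in the T127 pools, whereas Malign_2 of T22 had 0.231. In T127 Malign_0, with a median depth of 36205 UMIs, 5.49% of thinned cells [4.63–6.45] had an Il1rl1 UMI (30.4% before thinning). This cluster thus held both Il33 and the transcript of its receptor.

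**Figure D3:**
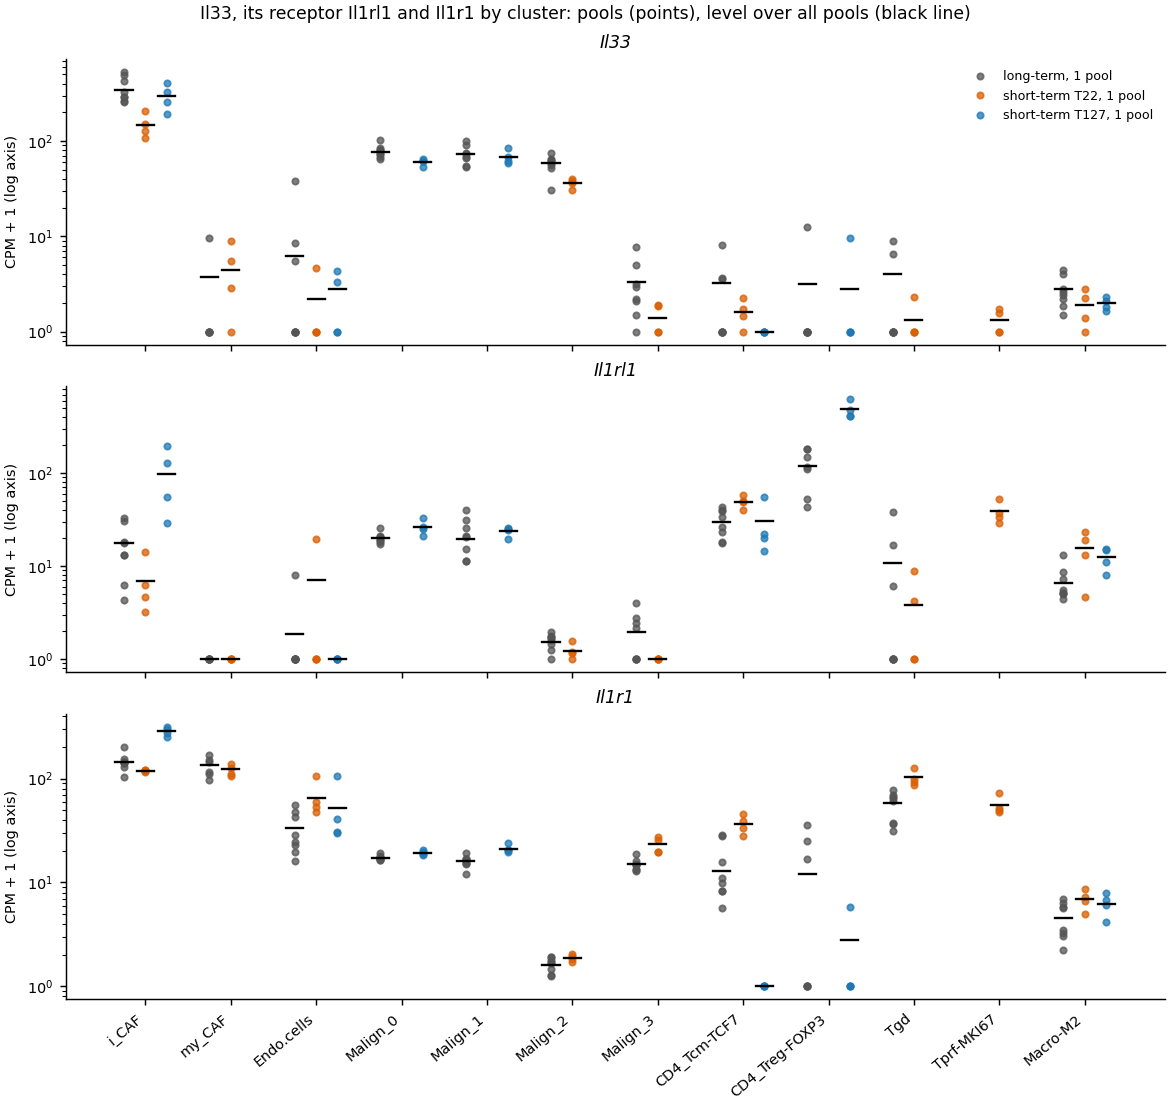
Levels (CPM + 1, log axis) of Il33, Il1rl1 and Il1r1 by cluster in the long-term, T22 and T127 experiments, with points for pools and a black line for the level over all pools. In the long-term pools, Il33 and Il1r1 are highest in i_CAF and Il1rl1 in CD4_Treg-FOXP3, and Malign_0 has all 3 messages.

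Nlrp3, like Il1a and Il1b, had its highest long-term level in Macro-M1. It was 234 CPM [225–243] in Macro-M1 (151, 207 and 339), 169.5 in Macro-others (117, 172 and 222) and 159.6 in Macro-M2 (117, 149 and 213), and all of these ranges overlapped. The malignant clusters had 0.741 to 1.65 CPM. In T22, Macro-M1 was at 169 CPM of Nlrp3, below Macro-others (283) and, without overlap of pools, below Macro-M2 (277). After thinning, 38.4% of T22 Macro-M2 cells [34.7–42.2] and 61.2% of those of T127 [58.3–64.0] had an Nlrp3 UMI, against 0.513% of T22 NK cells and 0 of 131 T127 NK cells, which allows a share of up to 2.29% (66.4%, 85.4%, 0.838% and 0 before thinning).

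The short-term experiments allow the same cluster to be set side by side in the sensitive and the resistant model. In Macro-M2, Il1a was far higher in T22, and Il1r2, Il1rn and Il18 were higher in T127. There the Il1a level was 324, 358, 233 and 359.6 CPM in T22 pools 1 to 4, and 16.1, 33.0, 17.7 and 13.7 in T127. The groups of pools were far apart, and the totals of 322 and 20.3 CPM gave a T22 level 15.9-fold higher [14.1–18.0]. Il1b in the same cells was 3006, 3280, 2634 and 3069 CPM in T22 and 3863, 3940, 4206 and 3778 in T127, which did not overlap either, but the T127 level was only 1.31-fold higher [1.29–1.33]. Thus the ratio of the 2 agonists differed between models more than the amount of Il1b did.

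Il1rn in Macro-M2 was 242, 201, 243 and 200.2 CPM in T22 and 635, 713, 814 and 669 in T127, 3.19-fold higher in T127 [3.04–3.34]. The lowest T127 pool was well above the highest T22 pool. Il1r2 was 32.3, 34.5, 40.6 and 28.1 CPM in T22 and 197, 213, 217 and 194 in T127, 6.12-fold higher [5.44–6.91]. Both molecules that restrain IL-1 signalling were therefore higher in T127 Macro-M2, by more than Il1b was. Neutrophils are known carriers of Il1r2, and neutrophil markers summed to 232 CPM in T127 Macro-M2 (pools 115 to 428, 6 of 7 genes with UMIs) and to 32.1 in T22 (19.5 to 51.3, 6 of 7). In CD14-IL1B, where Il1r2 was 42.0, 11.7, 5.60 and 32.1 CPM in T22 and 325, 293.5, 329.5 and 255 in T127, the same markers summed to 2.50 and 10.1 CPM. The part of neutrophils in the Il1r2 values was not tested.

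Il18 in Macro-M2 was 44.4, 49.1, 48.3 and 46.7 CPM in T22 and 153, 142, 161 and 114 in T127, 3.01-fold higher in T127 [2.71–3.35]. Nlrp3 was 287, 310.3, 254 and 252 CPM in T22 and 501, 483, 424 and 480.0 in T127, 1.71-fold higher [1.64–1.79]. Neither gene overlapped between models. The share of thinned Macro-M2 cells with a UMI moved the same way: it was 29.6% in T22 and 3.24% in T127 for Il1a, 26.4% and 63.1% for Il1rn, 6.72% and 23.9% for Il1r2, and 11.0% and 27.8% for Il18. Before thinning these were 43.6% and 7.92%, 45.2% and 81.8%, 13.6% and 38.5%, and 39.4% and 56.0%, at median depths of 13221 and 11285.5 UMIs.

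Of the 10 genes in Macro-M2, 1 was past 2-fold higher in T22 (Il1a) and 3 higher in T127 (Il1rn, Il1r2 and Il18). Over the 11770 genes with at least 20 UMIs in this cluster, 14.5% were past 2-fold in either direction, so many genes differed between models, and the median log2 ratio of T22 over T127 (pseudocount 1 CPM) was -0.55 for the 10 genes and -0.04 for all. In the cycling Macro-MKI67 cells, 1 of 9 counted genes was past 2-fold in T22 (Il1a) and 5 in T127 (Il1rn, Il1r2, Il18, Nlrp3 and Il1rap), with a background of 15.2%. The Nlrp3 call was lost without T22 pool 1 or 2 or T127 pool 2, at a log2 of -0.996 to -0.928 in place of -1.02, and Il1rl1 passed 2-fold without T22 pool 3 (-1.05) or T127 pool 3 (-1.09). With a pseudocount of 10 CPM, Il1rap (-0.61 in place of -1.97) and Nlrp3 (-0.99) were under 2-fold. In Macro-others, Il1a was 430.1, 467, 473 and 548 CPM in T22 and 1.62, 11.3, 15.1 and 5.99 in T127, a T22 level 54.7-fold higher [36.4–86.4]. Il1r2 in the same cells was 20.8, 15.3, 15.6 and 22.9 CPM in T22 and 328, 383, 290.2 and 329 in T127, 17.6-fold higher in T127 [15.3–20.2]. There 1 of 9 counted genes was past 2-fold in T22 and 4 in T127, with a background of 18.6%. Il1rn was under 2-fold there without T22 pool 4 (log2 -0.96) or T127 pool 1 (-0.89), and Il1b, at 3156 and 2726 CPM, overlapped between pools.

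In CD16-CDKN1C, 1 of 9 counted genes was past 2-fold in T22 and 4 in T127 (background 20.8%). Without T127 pool 3, the log2 ratio of T22 over T127 was under 2-fold for Il1r2 (-0.87 in place of -1.32) and Il1rl1 (-0.53 in place of -1.13), and for Il1rl1 also without T22 pool 1 (-0.90) or 2 (-0.91). Il1b was at 1209 and 2058 CPM there, 1.70-fold higher in T127 [1.65–1.76] without overlap of pools. Il18 was not past 2-fold in Macro-others, CD14-IL1B or CD14-PF4, where its pools overlapped, but passed it in Macro-others without T127 pool 4 (-1.19) and in CD14-IL1B and CD14-PF4 without T22 pool 2 (-1.10 and -1.30). Nlrp3 likewise passed it without T22 pool 3 in CD14-IL1B (-1.18) and CD16-CDKN1C (-1.005), and in CD14-IL1B without T127 pool 1 (-1.07). In CD14-IL1B the counts were 1 and 5 of 8 (background 12.5%), and Il1b itself was 2.20-fold higher in T127 [2.10–2.30], with 1127, 975, 953 and 1102 CPM in T22 and 2174, 2022, 2310 and 2500 in T127. Macrophage markers of this cluster were lower in T22 than in T127, as given above, so its mix of cells may differ between models. The part of this in its values was not tested. In CD14-PF4 the counts were 1 and 2 of 6 (background 17.2%), with 10 to 27 cells per pool. Il1a was higher in T22 without overlap of pools in each of the 6 monocyte and macrophage clusters compared except CD14-PF4. Macro-M1 had 1203 cells in T22 and 3 in T127 and was not compared.

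Over the 7 monocyte and macrophage clusters together, 1 gene was past 2-fold higher in T22 and 6 higher in T127 (Il1rn, Il1r2, Il18, Nlrp3, Il1rl1 and Il1rap), with backgrounds of 5.72% and 7.26%, or 13.0% in both directions. Nlrp3 was at a log2 of -1.03, and at -0.9997 without T127 pool 1. With a pseudocount of 10 CPM, Il1rap, Il1rl1 and Nlrp3 were no longer past 2-fold. Il1a was at 259 and 15.4 CPM, and Il1r2 at 25.9 and 214. Different clusters made up this sum, with 4205 of 7861 T22 cells in CD16-CDKN1C and 1174 of 2200 T127 cells in Macro-M2, so the values within clusters are the closer comparison.

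**Figure D4:**
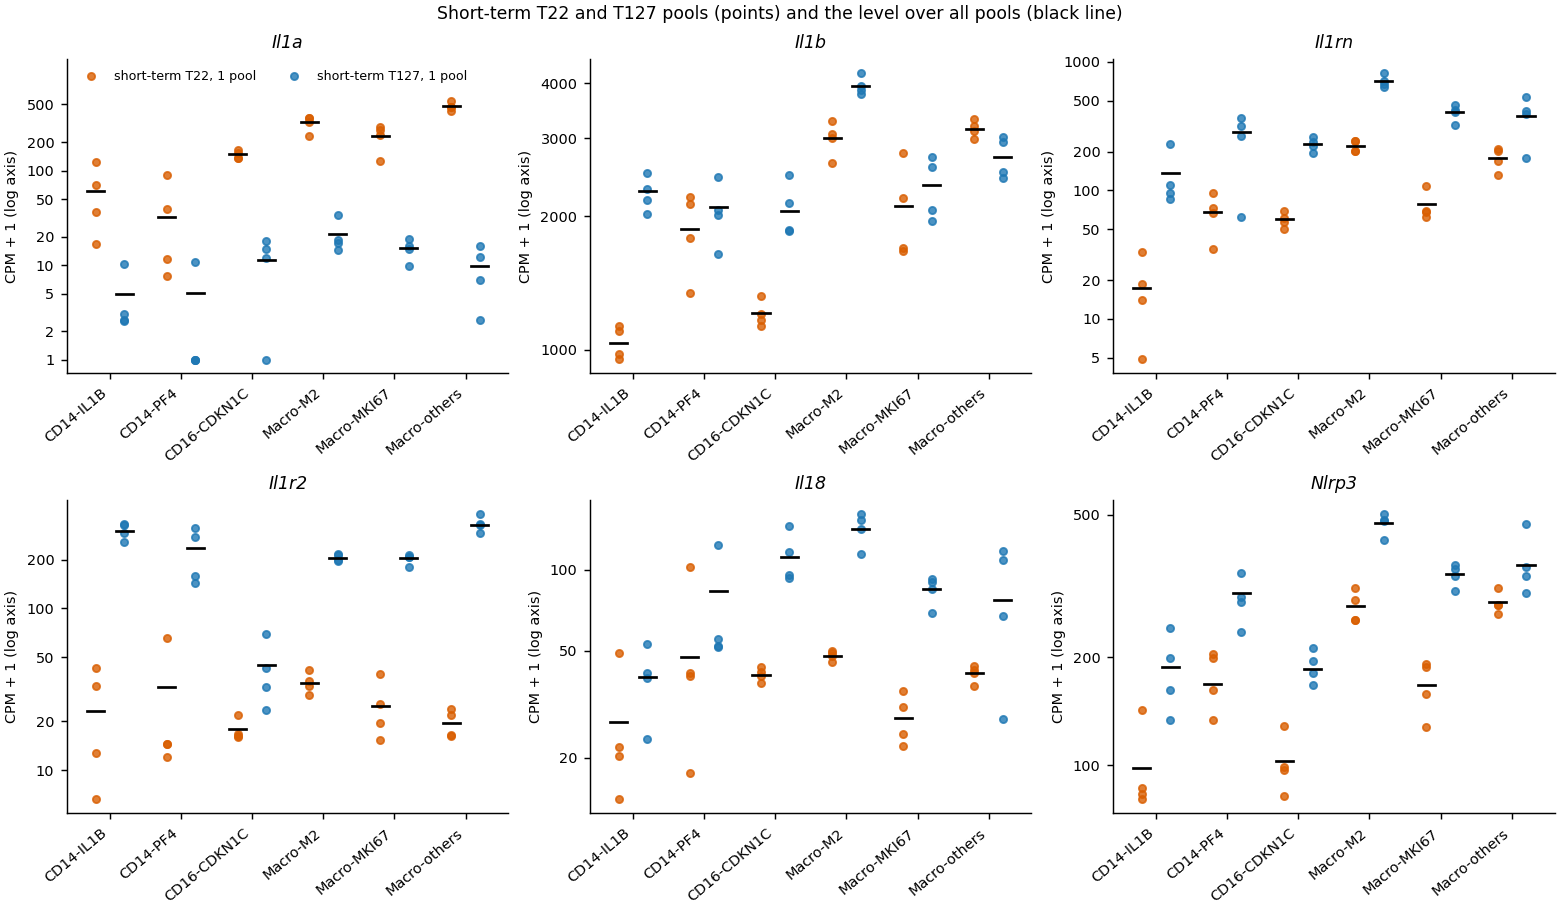
Levels of Il1a, Il1b, Il1rn, Il1r2, Il18 and Nlrp3 (CPM + 1, log axis) in 6 monocyte and macrophage clusters of the short-term T22 (orange) and T127 (blue) pools, with points for pools and black lines for the level over all pools. Il1a points of T22 lie above those of T127 in each cluster but CD14-PF4, Il1r2 points of T127 lie above those of T22, and Il1b points lie close together in Macro-others and Macro-MKI67.

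The ratio of Il1b to Il1rn UMIs was lower in T127 in each of the 6 clusters compared, though the CD14-PF4 pools overlapped (14.3 to 62.8 in T22 and 6.59 to 27.0 in T127). In Macro-M2 it was 13.6 in T22 [13.0–14.3] (pools 10.8 to 16.3) and 5.59 in T127 [5.47–5.71] (5.17 to 6.08). In Macro-MKI67 it was 27.5 (25.0 to 32.5) and 5.76 (4.93 to 6.34), and in CD16-CDKN1C 20.6 and 8.93. In CD14-IL1B it was 63.0 in T22 [47.1–86.2], from 46 Il1rn UMIs, of which 23 were in pool 3, and 96.3 without that pool, against 16.9 in T127 (11.0 to 25.9). Macrophage markers of CD14-IL1B were lower in T22 than in T127, and the part of this in the ratio was not tested. In Macro-others, with 17.8 and 7.22, T127 pools ran from 4.72 to 13.8. Over the compartment the long-term ratio, from pools that mix both models, was 22.4 (18.9 to 25.9), above the 16.7 of T22 and the 6.15 of T127, which come from other experiments and depths.

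**Figure D5:**
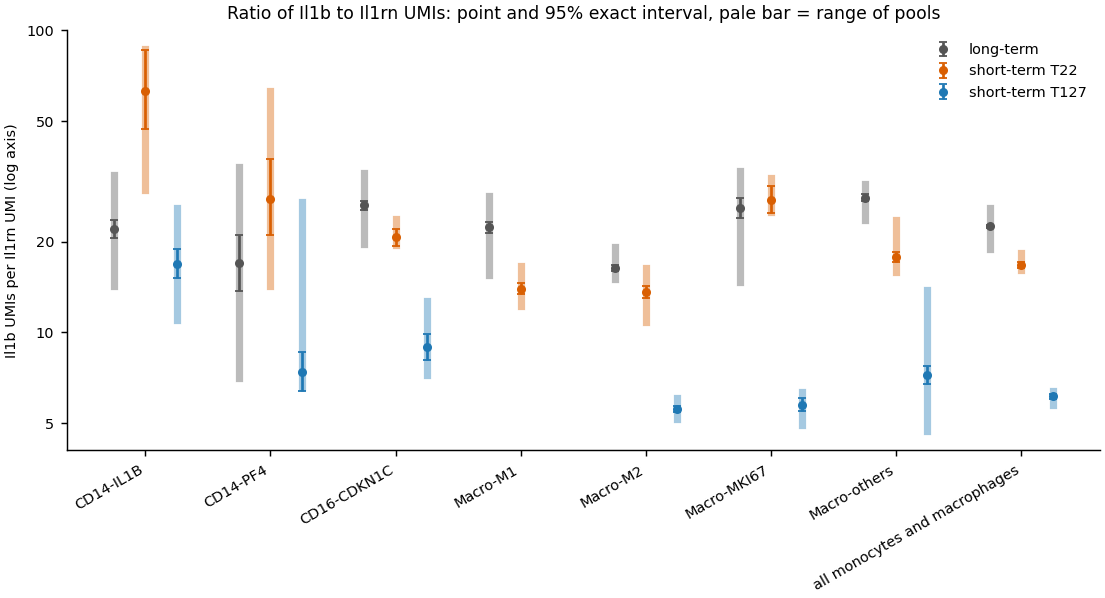
Ratio of Il1b to Il1rn UMIs by cluster in the long-term, T22 and T127 experiments (log axis), with points for the ratio over all pools, error bars for exact 95% counting intervals and pale bars for the range of pools. T127 ratios are below the T22 ratios in Macro-M2 (5.59 against 13.6), Macro-MKI67 and CD16-CDKN1C.

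In i_CAF the receptors differed between models. Il1r1 was 117, 119, 119 and 114 CPM in T22 and 313, 252, 274 and 300.3 in T127, without overlap, 2.43-fold higher in T127 [2.18–2.71]. Il33 was 205, 152, 105 and 126 CPM in T22 and 329, 190.3, 257 and 409 in T127. The Il33 pools overlapped, although the totals of 145 and 294 CPM differed 2.02-fold [1.82–2.24], and leaving out T22 pool 3 or 4, or T127 pool 1 or 4, put the ratio under 2-fold, at a log2 of -0.95 to -0.84 in place of -1.01. Il1rl1 was 13.2, 5.31, 3.65 and 2.21 CPM in T22 and 27.8, 192, 53.6 and 127.1 in T127. The T127 pools held 17 to 28 i_CAF cells each, and the spread between them was wide. The 24 T127 i_CAF cells with an Il1rl1 UMI had fibroblast markers at 26281 CPM, against 22756 in the 71 without. Cd3e was at 36.4 CPM in these 24 cells, from 24 UMIs, and at 2.37 in the others. The other T cell markers, Cd3d, Cd4 and Cd8a, had 0 UMIs in both. Median depths were 29905.5 UMIs in the 24 cells and 17268 in the others. The part of lymphocytes in the Il1rl1 values of i_CAF was not tested. Of 7 counted genes, 6 were past 2-fold higher in T127 (Il1r1, Il33, Il1rl1, Il1r2, Il18 and Il1rn) and none in T22, with a background of 16.2%. Il1r2 was under 2-fold without T22 pool 1 or 2 or T127 pool 1 or 4, at a log2 of -0.99 to -0.86 in place of -1.08. With a pseudocount of 10 CPM, 4 genes were past 2-fold, without Il33 and Il1r2. The Il1rn value rested on 4 and 24 UMIs, and macrophage markers in i_CAF summed to 33.0 CPM in T22 (pools 21.2 to 55.8) and 102 in T127 (8.55 to 230). Their part in the Il1rn, Il1r2 and Il18 values of i_CAF was not tested. In endothelial cells, Il1r1 was the only gene counted, at 64.5 and 51.2 CPM with overlapping pools, and was not past 2-fold (background 9.07%).

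Of 8 counted genes known to respond to IL-1, 6 were past 2-fold higher in T127 i_CAF and none in T22 (background 16.2%), with a median log2 ratio of -1.47 against 0.08 for all genes. They were the neutrophil-attracting chemokines Cxcl1 (604 CPM in T22 and 1638 in T127), Cxcl2 (55.3 and 327) and Cxcl5 (6.06 and 166), the cytokine Il6 (42.8 and 135), Nfkbiz, a nuclear regulator of NF-κB targets (207 and 530), and Ptgs2, the inducible prostaglandin synthase (109 and 310). Mmp3, a matrix protease, at 214 and 404 CPM, and Lcn2, at 5.92 and 5.71, were not past 2-fold. Between pools, Cxcl1 ran from 472 to 852 CPM in T22 and from 1206 to 2149 in T127, Cxcl2 from 19.8 to 97.2 and from 186 to 612, Cxcl5 from 4.17 to 9.92 and from 98.4 to 214, Nfkbiz from 167 to 232 and from 375 to 651, and Ptgs2 from 69.6 to 162 and from 224 to 436. None of these overlapped, whereas Il6, at 33.0 to 66.0 and 47.9 to 257, did. The 6 calls held with each pool left out in turn. Lcn2 and Mmp3 passed 2-fold on leaving out single pools, Lcn2 in opposite directions without T22 pool 3 (log2 -1.29) or T127 pool 4 (1.20), and Mmp3 without T22 pool 4 (-1.43) or T127 pool 3 (-1.15). The macrophage markers that were higher in T127 i_CAF bear on this list too, since T127 Macro-M2 held Cxcl2 at 4337 CPM and Ptgs2 at 701, and their part was not tested. These genes also respond to other signals. In endothelial cells, of 4 counted, 3 were past 2-fold higher in T22 and none in T127 (background 9.07%), Cxcl1 (149.8 and 32.7 CPM), Cxcl2 (18.3 and 6.18) and Il6 (29.2 and 10.6). The pools of all 3 overlapped, and the calls were lost for Cxcl2 without T22 pool 4 (log2 0.73) and for Il6 without T22 pool 1 (0.40) or T127 pool 2 (0.99).

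Of 6 signalling genes counted in i_CAF, Irak3, an inhibitor of the pathway, was past 2-fold higher in T127 (39.2 and 89.8 CPM), a share near the background of 16.2%, and of 5 inflammasome genes none was. Il1rl2, the IL-36 receptor, was at 38.8 and 66.4 CPM in i_CAF, not past 2-fold. In Macro-M2, none of 8 signalling genes was past 2-fold (background 14.5%). Of 8 responsive genes in Macro-M2, 1 was higher in T22 and 3 in T127 (background 14.5%), among them the chemokine Cxcl3 (8.68 and 493 CPM) and Ptgs2 (195 and 701). The others were Lcn2, higher in T22, and Cxcl5, whose pools overlapped. With a pseudocount of 10 CPM, both were under 2-fold, at a log2 of 0.48 and -0.46.

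Over the whole monocyte and macrophage compartment, 1 of 9 inflammasome genes was past 2-fold higher in T22, the sensor Nlrc4 (23.9 and 9.64 CPM), and 1 in T127, Mefv, which encodes the sensor pyrin (13.5 and 41.4). The adaptor Pycard (214 and 340 CPM) and the protease Casp1 (59.2 and 45.4) were not past 2-fold. Of 8 signalling genes, 1 was higher in T127, Irak3 (6.12 and 20.5). These counts are near the backgrounds of 5.72% (T22), 7.26% (T127) and 13.0% (both).

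Genes of most like pattern over the 21 long-term clusters were sought among 9720 genes by Pearson correlation of log2(CPM + 1), where clusters share pools and depth. Il1a was most like the complement genes C1qb (r = 0.98), C1qc (0.98) and C1qa (0.97). Il1b was most like Tlr13, Clec5a and Clec4a3 (0.98, 0.97 and 0.97), and Nlrp3 most like Clec4n (0.99). Il1rn was most like Clec4a3 (0.97) and Il1b (0.96). Il33 was most like Dcn (0.93), a fibroblast marker, and Il1rl1 most like Ttc39c (0.84) and Areg (0.82), whereas the best values for Il1r1 were 0.81 (Map1b, Cyb5a and Marveld1). Il18 was most like Pilrb2 (0.85) and Il1r2 most like Pygl (0.89).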

How the data were processed

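The study's cells were 10x Genomics 3′ v3.1 libraries, processed by the authors with Cell Ranger 6.0.0 (GRCm38, introns included). Poorly covered cells and Scrublet doublets were removed and cells clustered (Leiden) and named by the authors. The UMI counts deposited by the authors, per cell, were used as deposited. The study states its minimum of genes per cell in 2 places with different values, 1000 and a lower one, and the counts follow the lower: 2585 long-term, 2389 T22 and 182 T127 cells used here had under 1000 genes. The labels give the organism as human, while genes and mice are of the mouse.

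Counts were summed per cluster and experiment and divided by the cluster's total (CPM). A level needed 50 cells in a cluster and 10 in a pool. T22 and T127 were compared within clusters over genes with at least 20 UMIs, by log2 ratios with a pseudocount of 1 CPM, and a gene past 2-fold was counted. Intervals are exact (Poisson, binomial and Clopper-Pearson) at 95% and, like the limit of 3 counts for a share of 0, cover counting error only. PCR duplicates had been collapsed by UMI. Shares of cells with a UMI were taken after thinning to 3000 UMIs per cell, with shallower cells left out. Doublets were not called again. As an alternative, the 5% of cells with most UMIs in a pool were dropped.

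The genes named are the 10 genes, fixed lists of other pathway genes, and for each gene the 3 others of highest correlation among those reaching 20 CPM in a cluster. Members and lists were chosen with earlier results of these data known. Of the 10 further family genes listed, 6 were in the tables. Mouse sequences were not analysed here. The ratio and sum steps were tested on simulated data. Software was pandas 2.3.3, scipy 1.17.1, matplotlib 3.10.9 and numpy 2.4.6 under Python 3.11.15.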

Additional observations from a re-analysis of the deposited data

Results flagged for a closer look

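Of 169 values examined over 4 or 8 pools, 12 had a pool that stood apart from the others by Dixon's criterion. Chance gives this in about 1 in 20 groups.

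In endothelial cells, Il1b was at 743 CPM in long-term pool 8 and at 37.0 to 59.0 in the other pools. In Malign_1, long-term pool 4 stood apart for Il1b (53.8 CPM, others 15.7 to 25.6) and for Il1r2 (7.68 CPM, others 0.696 to 2.57). Il18 in Macro-MKI67 was at 185 CPM in long-term pool 5 against 40.1 to 91.8. Il1rl1 in Malign_0 was at 24.9 CPM in long-term pool 2 against 16.4 to 20.3. Nlrp3 in CD16-CDKN1C was at 165 CPM in long-term pool 8 against 111 to 133.

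Among the T22 pools, pool 3 stood apart for Il1r2 in CD16-CDKN1C (21.0 CPM, others 15.1 to 15.6), for Nlrp3 in CD14-IL1B (141 CPM, others 79.3 to 85.4) and for Il18 in Malign_2 (2.52 CPM, others 3.40 to 3.46). Pool 4 did so for Il1rn in Macro-MKI67 (107 CPM, others 61.4 to 67.5). Among the T127 pools, Malign_1 had Il18 at 21.1 CPM in pool 3 (others 17.0 to 17.3) and Il1rap at 3.11 CPM in pool 2 (others 3.63 to 3.73).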

How the results depend on the processing

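No paired analysis was possible because the values come from no test, and pools of different experiments share only a number. Of 330 alternatives over 31 results, 305 kept their value, 25 moved and 0 changed direction. A level, ratio or share was kept if it stayed within the spread between pools or the interval. Counts and percents of genes past 2-fold were judged by a fixed fold limit, under which 4 in place of 6 genes in i_CAF counted as kept. A further 17 changed no cell of their cluster and were left out, among them the minimum of 1000 genes and the removal of the top 5% of cells for Macro-M2, which therefore say nothing there. For the ratios of T22 over T127, 5 alternatives were chosen after seeing the data: all 7 monocyte and macrophage clusters summed, the mean over cells, the 1000-gene minimum, the top 5% of cells left out, and mitochondrial and ribosomal genes left out. Leaving out mitochondrial and ribosomal genes gave 257 CPM in place of 217 for Il1rn in long-term Macro-M1. For Il1rl1 in long-term CD4_Tcm-TCF7 it gave 42.4 CPM in place of 28.9. With all 7 clusters summed in place of Macro-M2, the log2 ratios of T22 over T127 were -0.57 for Il1b, -2.003 for Il1rn, -3.00 for Il1r2 and -1.03 for Nlrp3. For Il1r2 in Macro-M2 it was -2.31 with a pseudocount of 10 CPM and -2.32 as a mean over cells. For Il1r1 in i_CAF it was -1.10 without the top 5% of cells, which removed 94 of 291 T22 and 0 of 95 T127 cells. For Il33 in i_CAF it was -0.97 with a pseudocount of 10 CPM and -0.90 as a mean over cells, and -1.21 to -0.84 with each pool left out in turn, under 2-fold in 4 of the 8. With a pseudocount of 10 CPM, 5.66% of all genes were past 2-fold in Macro-M2 and 6.50% in i_CAF, and of the 10 genes 4 in each, in place of 4 and 6. That pseudocount also put under 2-fold Il1r1 in CD14-IL1B and Macro-others, Il1r2 and Il1rl1 in CD16-CDKN1C, Il1rap and Nlrp3 in Macro-MKI67, and Il1rap, Il1rl1 and Nlrp3 in the 7 clusters summed. For 61 further levels, ratios and calls, each pool was left out after seeing the data: of 481 values, the pseudocount included, 449 were kept, 32 moved and 0 changed direction. For 30 calls of other pathway genes, 245 of 270 such values were kept, 25 moved and 0 changed the direction of a call. In Macro-M2, Nlrc4 was under 2-fold without T22 pool 3 or T127 pool 2, and in the 7 clusters summed, Irak3 and Nlrc4 were with a pseudocount of 10 CPM. Unthinned and thinned to 1500 UMIs, the shares of cells with a UMI were 92.2% and 79.6% (Il1b, long-term Macro-M1), 43.6% and 21.2% (Il1a, T22 Macro-M2), 81.8% and 49.7% (Il1rn, T127 Macro-M2), and 66.3% and 16.4% (Il1r1, long-term i_CAF). The number of the 10 genes past 2-fold in i_CAF was 4 to 6 with each pool left out. Depth limits Il1rap throughout, and cell number limits T127 i_CAF, regulatory T cells and CD14-PF4.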

Other observations

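The T22 CD4_Tcm-TCF7 cells with an Il1rl1 UMI were 175 cells (7.18% of the cluster), with a median of 6165 UMIs against 6435 in the 2263 cells without. Gata3, the regulator of type 2 lymphocytes, was at 665 CPM in them and 104 in the others, Il13, a type 2 cytokine, at 781 and 15.6, and Areg, a growth factor of tissue-repairing lymphocytes, at 1372 and 57.6. The T cell receptor component Cd3e went the other way, at 299.9 and 1015 CPM, and Cd4 was at 52.7 and 47.5. Summed, the 5 markers fixed for type 2 innate lymphoid cells were at 3991 and 1079 CPM, and the 4 T cell markers at 544 and 1768. Some markers of other cells were higher too: Foxp3 was at 57.8 CPM against 2.29, and the 4 regulatory T cell markers at 933 against 365. The mast cell and basophil markers were at 144 against 9.18, and the epithelial markers at 142 against 55.3. In the cells with an Il1rl1 UMI, the former were nearly all Kit and Mcpt8, without Cpa3 or Ms4a2. The latter were mostly Epcam, with few UMIs of Krt8 or Krt18, whereas Krt14 was the largest part in the other cells. These sums thus rested on few genes and do not identify a cell type. In the long-term pools, 72 cells of the same cluster (6.34%) had an Il1rl1 UMI, with Gata3 at 397 CPM against 68.8, Il13 at 570.5 against 36.2, Areg at 2077 against 107 Cd3e at 621 against 843 and Foxp3 at 18.7 against 5.94, and a median of 4385.5 UMIs against 2700. These cells were picked by the gene, so the values are a description with no test.

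In T127 regulatory T cells, the 69 cells with an Il1rl1 UMI (46.3%) had Gata3 at 681 CPM against 251 in the 80 without, but Foxp3 at 615 against 612, and Areg at 697 against 1255. Il13 was at 113 CPM in them, from 29 UMIs, and at 0 in the others. Summed, the 4 regulatory T cell markers were at 5736 CPM in the cells with an Il1rl1 UMI and 4397 in those without. The 5 markers of type 2 innate lymphoid cells were not higher in sum, at 3179 CPM in the cells with an Il1rl1 UMI and 3263 in those without.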
